A study of Homo sapiens with 16 samples.

Results

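The genes of cholesterol synthesis and of its control by SREBP2 were followed in LN229 cells, an established human glioblastoma line, under ischemia-mimetic culture and under inhibitors of p38α and of MK2. The 29 genes were taken by name from the pathway, from *ACAT2* at its start to *NPC1* and *NPC2* at the lysosome, a rule that uses no expression value, although earlier results of these data were known. All 29 were found both among the 13559 genes listed in experiment 1 and among the 14024 genes listed in experiment 2. In experiment 1, untreated LN229 cells were kept in regular culture or in ischemic culture, in which glucose, glutamine and serum were low and oxygen was scarce. In experiment 2, cells of both cultures received the solvent DMSO, VX745, which inhibits p38α, or MK25, which inhibits its substrate kinase MK2, which gave 6 groups. Each of the 8 groups had 2 libraries, 16 in all. All libraries came from 1 cell line, and 1 compound was used for each kinase. The study names a working concentration for each compound without tying it to these libraries, and no dose or time in the ischemic medium is used here.

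Cells build cholesterol from acetyl-CoA through mevalonate, farnesyl diphosphate, squalene and lanosterol, a route that consumes ATP, reducing power and, from squalene on, oxygen. SREBP2, encoded by *SREBF2*, is the transcription factor that turns these genes on. It is held in the endoplasmic reticulum with its escort SCAP by INSIG1 and INSIG2 when sterols are plentiful, and is released in the Golgi by a pair of proteases, encoded by *MBTPS1* and *MBTPS2*, when sterols are scarce. In tumors of the brain, cholesterol is made locally or taken up from lipoproteins, since little passes the blood-brain barrier. Of uptake, the list covers only the steps after lipoproteins reach the lysosome.

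Between 20122017 and 37562668 reads per library lay on the listed genes, and the 29 genes had between 86 reads (*HSD17B7*) and 10960 reads (*INSIG1*) in a library, so none came near the limit of detection. Values are log2 normalized CPM, the reads of a gene as a share of the scaled library, and were compared only within a gene since CPM is not corrected for gene length. A difference was called at an adjusted p under 0.05 in limma, over all genes of the table. Nothing in the labels says that the 2 libraries of a group came from separate cultures, so the p-values measure only the spread between these libraries, which may be technical. In bulk RNA, fewer cells with a transcript and less transcript per cell cannot be told apart. Of the glial and neural markers, *NES* stood at 8.40 to 9.90, *VIM* at 11.08 to 12.77, *CD44* at 9.57 to 9.98, *S100B* at 4.54 to 5.47 and *SOX2* at 3.13 to 6.48, whereas *GFAP* did not exceed 1.06 and *OLIG2* did not exceed 3.09. Of 5 markers of other cell types, *PTPRC*, *PECAM1*, *EPCAM* and *ALB* were not listed in either table, and *CD68* had 546 to 2093 reads.

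Most of the pathway was higher with MK25. With VX745 against DMSO, 0 of the 29 were called in regular culture, where 0.178% of all genes were higher and 0.157% lower. In ischemic culture 3.45% of the 29 were higher and 20.7% lower with VX745, against 14% and 14.9% of all genes. With MK25 against VX745, 22 of the 29 genes were higher in regular culture and 20 in ischemic culture, and the 20 were all among the 22. Among all genes, 3.96% were higher in regular culture, 8.22% in ischemic culture and 2.17% in both. None of the 29 was lower in either culture by limma, against 1.43% and 10.2% of all genes, and voom on the recovered reads also gave 0. At an unadjusted p under 0.05, 0 were lower in regular culture and 1 was lower in ischemic culture. At a fold of at least 1.5, 19 genes were higher in regular culture and 13 in ischemic culture, where 1.23% and 1.75% of all genes were. The median log2 difference of the 29 was 1.02 in regular culture and 0.56 in ischemic culture, and that of all genes was 0.01 and -0.01. By step, the median in regular culture was 1.05 for the 8 genes up to farnesyl and geranylgeranyl diphosphate, 1.41 for the 3 genes from farnesyl diphosphate to lanosterol, 1.17 for the 9 genes after lanosterol, 0.43 for the 6 control genes and 0.39 for the 3 transport genes.

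**Figure D1:**
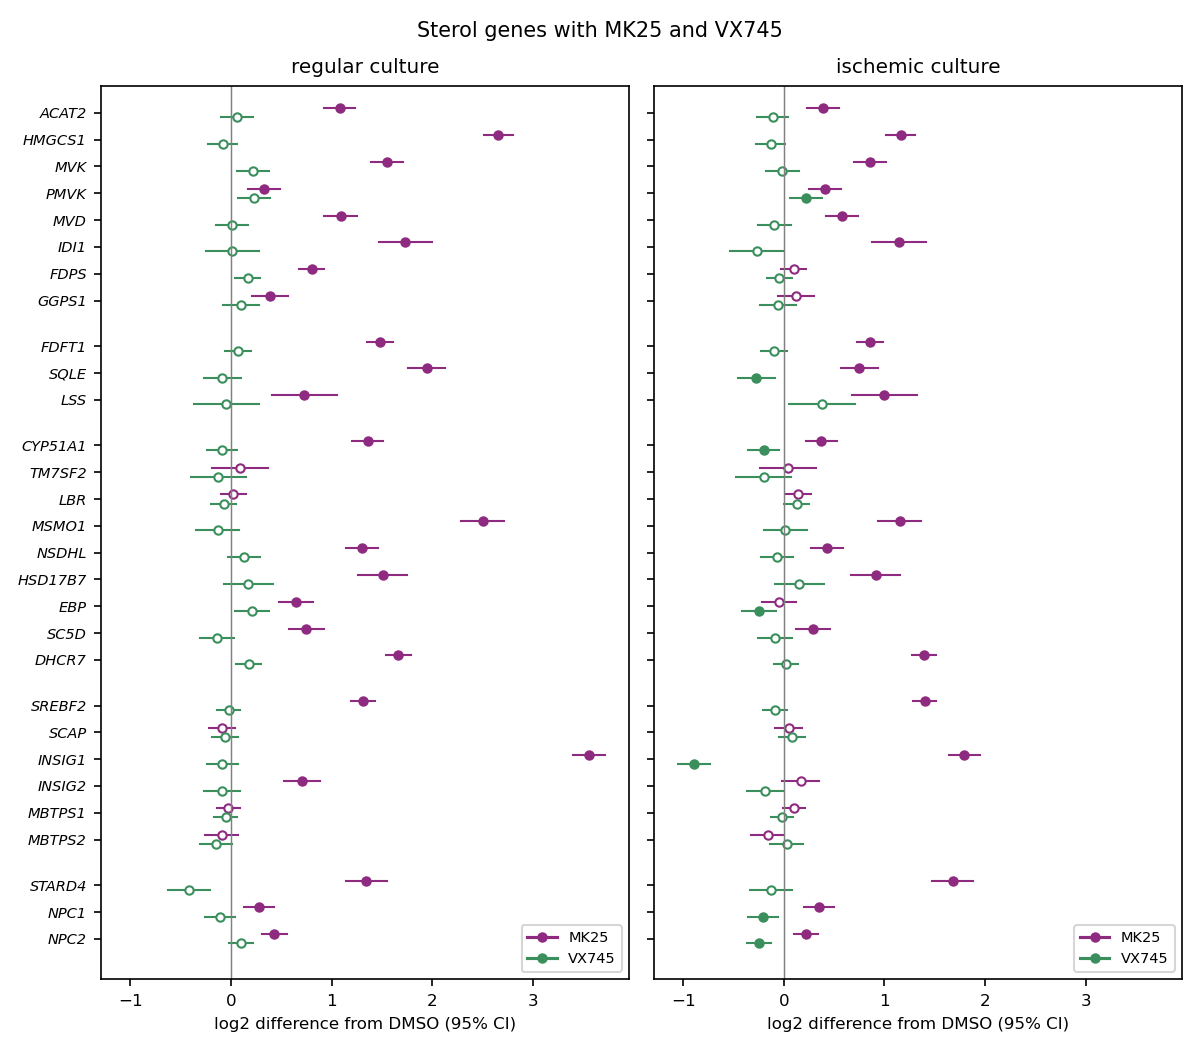
Log2 difference from DMSO of each of the 29 genes, in pathway order from top to bottom, with MK25 (purple) and VX745 (green) in regular culture (left) and ischemic culture (right). Bars are 95% confidence intervals from limma on 2 libraries per group, and filled points are called at an adjusted p under 0.05. With MK25 the points reach 3.56 in regular culture and 1.79 in ischemic culture (both *INSIG1*), and with VX745 in regular culture no point is filled.

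Against DMSO, MK25 called 24 genes higher in regular culture, where 7% of all genes were higher, and 20 in ischemic culture, where 19.8% of all genes were higher. The 20 were all among the 24, where 3.09% of all genes were higher in both cultures, and the other 4 were *FDPS*, *GGPS1*, *EBP* and *INSIG2*. None was lower, where 5.21% and 22% of all genes were lower. The count of lower genes was also 0 in both cultures with voom and at an unadjusted p under 0.05. Libraries with MK25 enter both this comparison and the one with VX745, so the counts are not independent.

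Genes of hypoxia moved with MK25 in regular culture as well. *CA9* was higher with MK25 than with DMSO by 2.97 ± 0.38 on the log2 scale (SE), at a mean of 2.22 against -0.75. Its counts in regular culture fell as low as 4 reads in a library, so the size of this difference is uncertain. *ANKRD37* was higher by 2.02 ± 0.15, *VEGFA* by 0.92 ± 0.05 and *ADM* by 0.54 ± 0.08. *EGLN3*, the last of the 5 hypoxia genes examined, was not called in regular culture (0.33, adjusted p = 0.421) and was higher in ischemic culture by 0.95 ± 0.25. Against DMSO, the other 4 were not called in ischemic culture, with differences of -0.20 to 0.37 and adjusted p-values of 0.0669 to 0.455. Against VX745 in ischemic culture, *VEGFA* was higher with MK25 by 0.40 (adjusted p = 4.68e-05), as VX745 lowered it against DMSO by 0.51. *CA9* was not called there (0.41, adjusted p = 0.514). Of the 7 glial and neural markers, *SOX2* was lower with MK25 than with VX745 in regular culture (-0.39), and *OLIG2* (-1.08), *NES* (-0.40) and *CD44* (-0.19) were lower in ischemic culture. Against DMSO, MK25 lowered *OLIG2* (-0.45), *VIM* (-0.32), *CD44* (-0.18) and *NES* (-0.17) in ischemic culture and *NES* (-0.25) in regular culture. VX745 in ischemic culture was above DMSO for *OLIG2* (0.64) and *NES* (0.23) and below it for *VIM* (-0.24). The part of the hypoxia genes and of these markers in the changes of the sterol genes was not tested.

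In the early steps, *HMGCS1*, which joins acetyl-CoA to acetoacetyl-CoA, had the largest MK25 difference of the synthetic genes in regular culture. In regular culture its levels were 5.29 and 5.30 with DMSO, 5.23 and 5.20 with VX745, and 7.88 and 8.03 with MK25. In ischemic culture they were 4.74 and 4.65, 4.51 and 4.62, and 5.84 and 5.87. Both MK25 libraries stood above the other 4 libraries in each culture. MK25 exceeded VX745 by 2.74 ± 0.07 (SE), or 6.68-fold, in regular culture (adjusted p = 1.65e-14) and by 1.29 ± 0.07, or 2.45-fold, in ischemic culture (adjusted p = 6.88e-10).

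*ACAT2*, the cytosolic thiolase that makes acetoacetyl-CoA, read 5.07 and 4.99 with DMSO, 5.15 and 5.03 with VX745, and 6.15 and 6.07 with MK25 in regular culture. Its ischemic levels were 4.58 and 4.44, 4.40 and 4.40, and 4.91 and 4.89. Here too the MK25 libraries were the highest of their culture, by 2.03-fold over VX745 in regular culture and 1.41-fold in ischemic culture. *MVK*, the mevalonate kinase, read 4.09 and 3.92, 4.21 and 4.25, and 5.61 and 5.51 in regular culture, and 4.71 and 4.68, 4.69 and 4.67, and 5.58 and 5.52 in ischemic culture. MK25 libraries of *MVK* thus ended at nearly the same level in both cultures, from a higher start under ischemia, and the difference from VX745 was 2.52-fold and 1.82-fold. *MVD*, which decarboxylates mevalonate diphosphate, read 4.33 and 4.35, 4.34 and 4.36, and 5.51 and 5.35 in regular culture, and 4.31 and 4.32, 4.25 and 4.19, and 4.94 and 4.84 in ischemic culture. The *MVD* groups with MK25 did not overlap the others, and the difference from VX745 was 2.11-fold and 1.59-fold. All of these differences were called.

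*IDI1*, the isomerase of isopentenyl diphosphate, was low in ischemic culture and rose with MK25 in both. Its levels were 3.98 and 4.10 with DMSO, 4.22 and 3.90 with VX745 and 5.74 and 5.82 with MK25 in regular culture, and 3.16 and 3.06, 2.66 and 3.02, and 4.13 and 4.38 in ischemic culture. MK25 exceeded VX745 by 1.72 ± 0.13 (3.29-fold, adjusted p = 4.02e-08) and by 1.41 ± 0.13 (2.66-fold, adjusted p = 3.75e-07). *FDPS*, the farnesyl diphosphate synthase, rose in regular culture, from 7.23 and 7.06 with DMSO and 7.31 and 7.31 with VX745 to 7.98 and 7.92 with MK25. In ischemic culture its levels of 6.92 and 6.90, 6.87 and 6.86, and 7.06 and 6.96 lay close together, and the difference between MK25 and VX745 of 0.15 (95% confidence interval 0.02 to 0.27) was not called (adjusted p = 0.1). *PMVK*, the phosphomevalonate kinase, and *GGPS1*, which makes geranylgeranyl diphosphate for protein prenylation, were called in neither culture with MK25 against VX745. Their differences were 0.10 (-0.05 to 0.26) and 0.29 (0.11 to 0.47) in regular culture and 0.19 (0.03 to 0.35) and 0.18 (0.00 to 0.36) in ischemic culture. Against DMSO, *PMVK* was higher with MK25 in both cultures (0.33 and 0.41) and *GGPS1* in regular culture (0.39). The calls in regular culture did not hold without regular DMSO replicate 2, where both differences were 0.285. That of *PMVK* did not hold without regular MK25 replicate 1 either (0.222).

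The 3 enzymes from farnesyl diphosphate to lanosterol all rose with MK25 in both cultures. *SQLE*, the oxygen-dependent squalene epoxidase, read 4.98 and 4.68 with DMSO, 4.68 and 4.81 with VX745 and 6.71 and 6.84 with MK25 in regular culture, and 4.69 and 4.69, 4.44 and 4.39, and 5.40 and 5.48 in ischemic culture. Its MK25 libraries were clear of the rest, at 4.08-fold over VX745 in regular culture (adjusted p = 2.2e-11) and 2.03-fold in ischemic culture (adjusted p = 2.11e-07). *FDFT1*, the squalene synthase, read 6.45 and 6.32, 6.49 and 6.42, and 7.85 and 7.88 in regular culture, and 6.30 and 6.33, 6.15 and 6.28, and 7.19 and 7.15 in ischemic culture. The difference between MK25 and VX745 was 2.66-fold and 1.94-fold, with no overlap of libraries. *LSS*, which closes the rings of lanosterol, was the least certain of the 3, with 3.25 and 3.09, 3.05 and 3.20, and 3.93 and 3.87 in regular culture, and 2.74 and 3.03, 3.56 and 2.98, and 3.98 and 3.79 in ischemic culture. Its VX745 libraries in ischemic culture stood apart from each other, and MK25 exceeded VX745 by 0.77 ± 0.15 and 0.62 ± 0.15 (adjusted p = 0.00447 and 0.0085). The call in regular culture was lost without regular VX745 replicate 1 (adjusted p = 0.0585), and that in ischemic culture without ischemic VX745 replicate 2 (0.202) or ischemic MK25 replicate 1 (0.092).

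After lanosterol, 7 of 9 genes were higher with MK25 than with VX745 in regular culture and 6 in ischemic culture. *MSMO1*, the methylsterol oxidase, had levels of 3.91 and 3.70 with DMSO, 3.81 and 3.54 with VX745 and 6.27 and 6.34 with MK25 in regular culture, and 3.72 and 3.73, 3.74 and 3.75, and 4.78 and 4.99 in ischemic culture. Both MK25 libraries were above all others of their culture, by 2.63 ± 0.10 (6.2-fold, adjusted p = 6.96e-12) and 1.14 ± 0.10 (2.2-fold, adjusted p = 3.56e-07) over VX745. *DHCR7*, the reductase that makes cholesterol from its dehydro precursor, was nearly as high with MK25 in ischemic culture as in regular culture. It read 5.81 and 5.79, 5.98 and 5.98, and 7.42 and 7.51 in regular culture, and 6.01 and 5.997, 6.04 and 6.01, and 7.45 and 7.34 in ischemic culture, a difference from VX745 of 2.8-fold (adjusted p = 7.14e-12) and 2.58-fold (adjusted p = 3.21e-11).

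*CYP51A1*, the lanosterol demethylase, read 6.10 and 6.001, 6.04 and 5.88, and 7.43 and 7.39 in regular culture, and 6.32 and 6.23, 6.04 and 6.12, and 6.55 and 6.75 in ischemic culture. The rise over VX745 was 2.72-fold in regular culture and 1.49-fold in ischemic culture. *NSDHL* and *HSD17B7* work with *MSMO1* to remove methyl groups. *NSDHL* read 4.53 and 4.43, 4.58 and 4.65, and 5.80 and 5.77 in regular culture, and 4.41 and 4.57, 4.42 and 4.43, and 4.92 and 4.92 in ischemic culture, 2.25-fold and 1.41-fold over VX745. *HSD17B7* had the lowest count of the 29 genes in a single library. It read 2.97 and 2.96, 3.10 and 3.19, and 4.48 and 4.47 in regular culture, and 2.30 and 2.09, 2.40 and 2.29, and 3.02 and 3.19 in ischemic culture. With MK25 it was 2.52-fold and 1.69-fold over VX745. MK25 libraries of these 3 genes did not overlap the other libraries of their culture, and all 6 differences were called. *SC5D*, a sterol desaturase, read 5.44 and 5.29, 5.23 and 5.22, and 6.07 and 6.16 in regular culture, and 4.75 and 4.57, 4.60 and 4.55, and 4.87 and 5.04 in ischemic culture. Its rise over VX745 was 1.85-fold in regular culture and 1.3-fold in ischemic culture, the latter lost without ischemic MK25 replicate 2 (adjusted p = 0.0524).

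3 genes after lanosterol stood apart. *EBP*, the sterol isomerase, was higher with MK25 than with VX745 in regular culture by 0.43 ± 0.08 (adjusted p = 0.0025), a call lost without regular VX745 replicate 2 (0.0713), and the ischemic difference of 0.20 (0.03 to 0.37) was not called. *TM7SF2* and *LBR* encode reductases of the same step, and *LBR* also anchors chromatin at the nuclear envelope. Neither was called with MK25 against VX745, with differences of 0.22 (-0.06 to 0.49) and 0.09 (-0.03 to 0.22) in regular culture and 0.24 (-0.03 to 0.51) and 0.01 (-0.11 to 0.14) in ischemic culture.

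**Figure D2:**
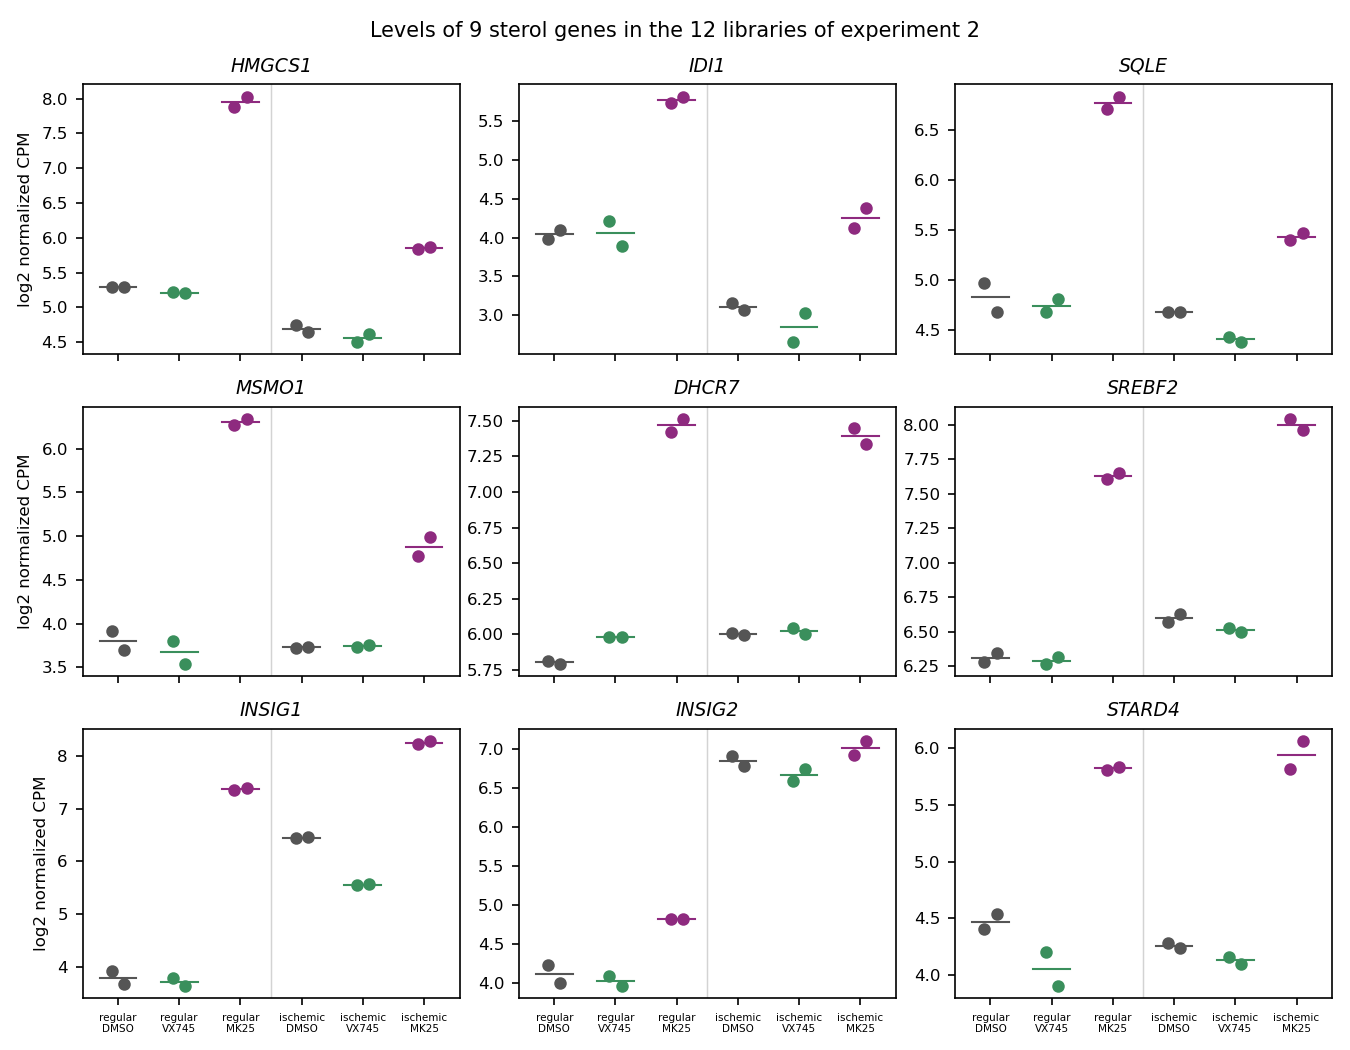
Log2 normalized CPM of 9 genes in the 12 libraries of experiment 2. Each point is a library, each line the mean of the 2 libraries of a group, and each panel has its own vertical scale that does not start at 0. The 9 genes are all among the 20 called higher with MK25 than with VX745 in both cultures, so genes that were not called are left out. In these panels MK25 libraries (purple) lie above the DMSO (grey) and VX745 (green) libraries of the same culture. The narrowest gap is that of *INSIG2* in ischemic culture. The share of all genes with such a gap was not computed.

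Among the control genes, *SREBF2*, *INSIG1* and *INSIG2* are shown with the bases before their start, and *MSMO1* with them as a synthetic gene with a large rise. The sequences are from RefSeq (GRCh38.p14), each the 250 bases before the start on the plus strand, at chr22:41832855-41833104 (*SREBF2*), chr7:155297628-155297877 (*INSIG1*), chr2:118088221-118088470 (*INSIG2*) and chr4:165327419-165327668 (*MSMO1*). Capitals mark CCAAT (the NF-Y box), CACGTG (an E-box) and CACNCCA, the core within the SREBP site TCACNCCAC, on either strand. *SREBF2* and *INSIG2* were chosen by rule, *INSIG1* and *MSMO1* after their values and matches had been seen.
SREBF2: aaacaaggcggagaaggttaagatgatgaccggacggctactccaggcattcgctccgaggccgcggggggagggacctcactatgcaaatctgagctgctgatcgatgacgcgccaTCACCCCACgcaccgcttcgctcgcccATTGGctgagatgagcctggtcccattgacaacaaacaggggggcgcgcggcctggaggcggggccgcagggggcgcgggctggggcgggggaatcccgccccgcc
INSIG1: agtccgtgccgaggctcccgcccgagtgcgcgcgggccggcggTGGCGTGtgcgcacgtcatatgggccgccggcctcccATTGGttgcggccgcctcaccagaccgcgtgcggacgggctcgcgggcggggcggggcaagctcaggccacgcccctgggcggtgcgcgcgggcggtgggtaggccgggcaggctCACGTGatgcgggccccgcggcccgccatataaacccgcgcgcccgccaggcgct
INSIG2: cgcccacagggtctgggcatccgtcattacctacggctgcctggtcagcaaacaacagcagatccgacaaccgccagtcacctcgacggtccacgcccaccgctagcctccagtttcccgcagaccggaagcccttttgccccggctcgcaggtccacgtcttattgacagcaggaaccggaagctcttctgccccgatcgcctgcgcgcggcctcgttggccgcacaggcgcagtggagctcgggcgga
MSMO1: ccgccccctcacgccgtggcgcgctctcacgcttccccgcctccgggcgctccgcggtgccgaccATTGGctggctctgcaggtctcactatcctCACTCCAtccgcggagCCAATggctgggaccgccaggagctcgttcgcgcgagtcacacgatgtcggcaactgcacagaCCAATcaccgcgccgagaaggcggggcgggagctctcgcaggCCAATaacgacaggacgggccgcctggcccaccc
The window of *SREBF2* held the full SREBP site, 133 bases before the start, and an NF-Y box. That of *INSIG1* held the core, an NF-Y box and an E-box, that of *MSMO1* the core and 4 NF-Y boxes, and that of *INSIG2* none of these.

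Over windows of 300 bases, from 250 before the start to 50 after it, 26 of the 29 genes had an entry, 35 windows in all, and *ACAT2*, *FDFT1* and *SQLE* had none. TCACNCCAC was found on either strand in 1 of the 26 (*SREBF2*), against 1.13% of all 35116 windows and 1.39% of the detected genes. CCAAT was found in 18, or 69.2%, against 34.6% and 43.4%. GGGCGG, the Sp1 box, was found in 22, or 84.6%, against 45% and 75.6%, and CACGTG in 4, or 15.4%, against 7.26% and 12.4%. The core CACNCCA, which was added after the data were seen and overlaps the SREBP site, was found in 9, or 34.6%, against 17.6% and 21.1%. A match gives letters only and shows no binding.

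*SREBF2*, which encodes SREBP2 itself, rose alike in both cultures. It read 6.28 and 6.35 with DMSO, 6.27 and 6.31 with VX745 and 7.61 and 7.65 with MK25 in regular culture, and 6.57 and 6.63, 6.53 and 6.50, and 8.04 and 7.96 in ischemic culture. The MK25 libraries stood well above the others, by 1.34 ± 0.05 (2.52-fold, adjusted p = 1.37e-11) and 1.49 ± 0.05 (2.8-fold, adjusted p = 1.36e-11) over VX745. *SCAP*, the escort, read between 6.37 and 6.54 in all 12 libraries, and MK25 differed from VX745 by -0.03 (-0.16 to 0.10) in both cultures. The proteases *MBTPS1* and *MBTPS2* were not called either, at 0.03 (-0.08 to 0.14) and 0.06 (-0.10 to 0.22) in regular culture and 0.12 (0.01 to 0.23) and -0.19 (-0.35 to -0.03) in ischemic culture.

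*INSIG1* had the largest difference of the 29 genes in both cultures. Its levels were 3.93 and 3.68 with DMSO, 3.79 and 3.65 with VX745 and 7.35 and 7.38 with MK25 in regular culture. In ischemic culture they were 6.45 and 6.45, 5.56 and 5.57, and 8.21 and 8.28. Regular DMSO and VX745 overlapped, ischemic VX745 and then ischemic DMSO stood above them, and both MK25 groups were highest. MK25 exceeded VX745 by 3.64 ± 0.07 (12.5-fold, adjusted p = 1.28e-15) in regular culture and 2.68 ± 0.07 (6.43-fold, adjusted p = 2.22e-13) in ischemic culture, and exceeded DMSO by 11.8-fold and 3.47-fold. *INSIG2* differed more between the cultures than between the compounds, with 4.23 and 4.00, 4.09 and 3.97, and 4.83 and 4.82 in regular culture, and 6.91 and 6.78, 6.59 and 6.74, and 6.92 and 7.10 in ischemic culture. All 6 ischemic libraries lay above all 6 regular ones, and the MK25 rise over VX745 was 1.74-fold in regular culture (adjusted p = 6.79e-06) and 1.27-fold in ischemic culture (adjusted p = 0.00834). The ischemic call was lost without ischemic VX745 replicate 1 (adjusted p = 0.129) or ischemic MK25 replicate 2 (0.123). Against DMSO, *INSIG2* rose by 0.71 ± 0.09 in regular culture, and its difference of 0.17 (-0.01 to 0.35) in ischemic culture was not called.

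*STARD4*, which carries cholesterol between membranes, read 4.40 and 4.54 with DMSO, 4.20 and 3.91 with VX745 and 5.81 and 5.83 with MK25 in regular culture, and 4.28 and 4.24, 4.16 and 4.10, and 5.82 and 6.06 in ischemic culture. Both MK25 groups were far above the rest, 3.4-fold over VX745 in regular culture (adjusted p = 6.97e-10) and 3.5-fold in ischemic culture (adjusted p = 8.53e-10). *NPC1*, which exports cholesterol from late endosomes and lysosomes, read 6.27 and 6.38, 6.15 and 6.28, and 6.51 and 6.70 in regular culture, and 6.75 and 6.66, 6.54 and 6.45, and 7.08 and 7.04 in ischemic culture. Its MK25 libraries were highest in each culture by a small margin, 1.31-fold and 1.48-fold over VX745. *NPC2*, its soluble partner in the lysosome, was 1.26-fold and 1.38-fold higher, and all 4 of these differences were called.

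The rise with MK25 differed between the cultures for part of the pathway. The difference between MK25 and VX745 was smaller in ischemic than in regular culture for 13 of the 29 genes by the interaction term, where 3.58% of all genes were, and was larger for 0, where 1.27% of all genes were. With voom and at an unadjusted p under 0.05 the count of larger differences was also 0. Against DMSO, the MK25 difference was smaller in ischemic culture for 17 genes, where 13.9% of all genes were, and larger for 0 by limma and by voom, where 10.5% were. At an unadjusted p under 0.05, 1 was larger. The interaction against VX745 reached -1.50 ± 0.14 for *MSMO1*, -1.45 ± 0.10 for *HMGCS1*, -1.003 ± 0.12 for *SQLE* and -0.96 ± 0.11 for *INSIG1*.

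For 6 genes that were at least 1.5-fold higher with MK25 than with VX745 in both cultures, the difference between the cultures was not called. This interaction was 0.15 (95% confidence interval -0.01 to 0.32) for *SREBF2*, 0.04 (-0.25 to 0.33) for *STARD4*, -0.12 (-0.29 to 0.05) for *DHCR7*, -0.15 (-0.61 to 0.30) for *LSS* and -0.31 (-0.68 to 0.07) for *IDI1*. It was -0.58 (-0.92 to -0.23) for *HSD17B7*, at an adjusted p of 0.0518. These intervals leave out a loss of the size seen for *HMGCS1* or *MSMO1*. Against DMSO the rise was smaller in ischemic culture for 3 of the 6. The interaction was -0.60 for *HSD17B7*, -0.59 for *IDI1* and -0.27 for *DHCR7* (adjusted p = 0.0133, 0.0226 and 0.0215). These 3 calls were each lost when some single libraries were left out. Those of *IDI1* and *DHCR7* were also lost with no variance trend (adjusted p = 0.086 and 0.051).

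**Figure D3:**
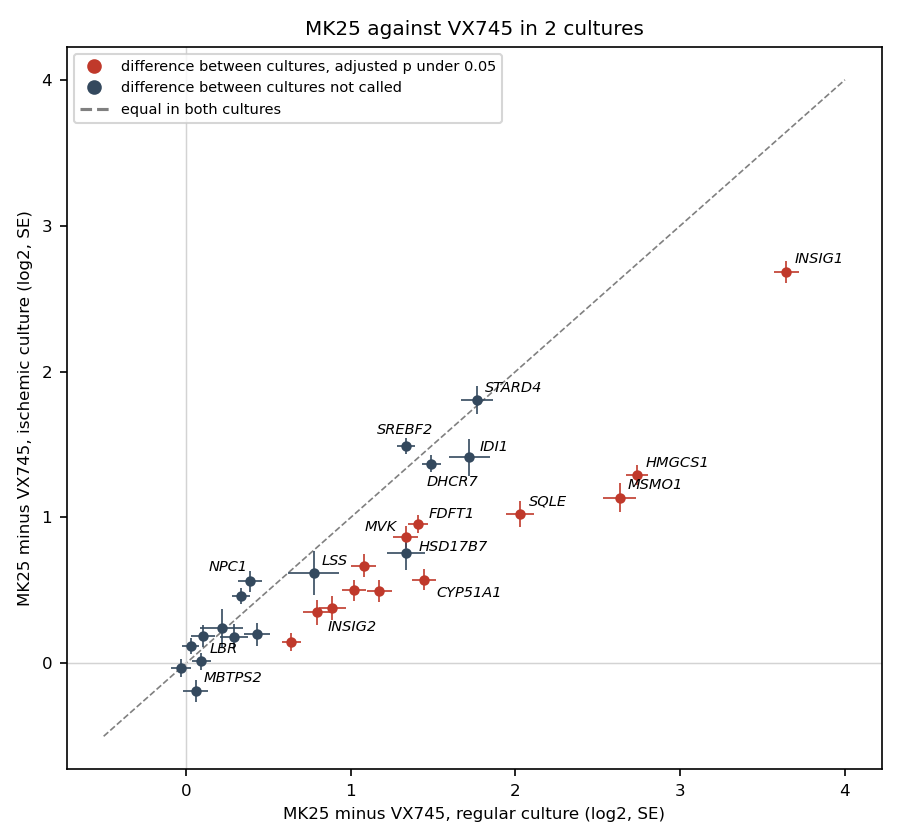
Log2 difference between MK25 and VX745 in regular culture (horizontal) and in ischemic culture (vertical) for the 29 genes, with bars of 1 SE and a dashed line where both are equal. Red genes differ between the cultures at an adjusted p under 0.05 and lie below the line, from *INSIG1* at 3.64 and 2.68 to *FDPS* at 0.64 and 0.15, and *SREBF2* and *STARD4* lie on or near it.

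With VX745 alone, few genes of the whole table were called in regular culture. In regular culture, 0 of the 29 genes were called by limma in either direction, where 0.178% of all genes were higher and 0.157% lower. Voom also gave 0. At an unadjusted p under 0.05, 5 were higher and 1 was lower. No share of all genes was computed at that threshold, so these counts cannot be judged against it. The lowest was *STARD4*, at -0.42 (-0.62 to -0.21, adjusted p = 0.0805). Without regular DMSO replicate 1, 1 gene was called higher and 1 lower.

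In ischemic culture VX745 called 6 genes lower, where 14.9% of all genes were lower, and 1 higher, where 14% were. *INSIG1* fell by 0.89 ± 0.07 on the log2 scale, or 1.85-fold (adjusted p = 4.68e-07), with its VX745 libraries both below the DMSO libraries. The other 5 were *SQLE*, *CYP51A1*, *EBP*, *NPC1* and *NPC2*, at -0.27 to -0.20, and *PMVK* was the higher one, at 0.22. With 1 library fewer, the calls of *SQLE*, *CYP51A1*, *EBP* and *NPC1* were lost whichever of the ischemic DMSO or VX745 libraries was left out. That of *NPC2* was lost without ischemic DMSO replicate 1 (-0.218) or ischemic VX745 replicate 1 (-0.213), and that of *INSIG1* held. With no variance trend, *SQLE*, *CYP51A1*, *EBP* and *NPC1* were not called either (adjusted p = 0.0801, 0.123, 0.096 and 0.104). *PMVK* was not called without ischemic DMSO replicate 1 (adjusted p = 0.24), ischemic VX745 replicate 1 (0.163) or ischemic VX745 replicate 2 (0.11).

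The VX745 difference was lower in ischemic than in regular culture for 3 genes, where 6% of all genes were, and higher for 0 by limma and voom, where 5.78% were. At an unadjusted p under 0.05, 2 were higher. The 3 were *INSIG1* (-0.81 ± 0.11, adjusted p = 0.000235), *EBP* and *NPC2*. Only *INSIG1* was left without regular VX745 replicate 1, ischemic DMSO replicate 1 or ischemic VX745 replicate 1, when the count fell to 1.

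Both *INSIG* genes were higher in ischemic culture, and other genes of the pathway were called in both directions. In experiment 1, 9 of the 29 genes were higher, where 35.2% of all genes were, and 14 were lower, where 35.2% were. In the DMSO cells of experiment 2, 9 were higher, where 34.4% of all genes were, and 9 were lower, where 35.2% were. The share of lower genes in experiment 1 was thus 48.3%, and the other 3 shares, 31% each, were near those of all genes. The median of the 29 was -0.31 and -0.07, against -0.01 and -0.01 over all genes. The DMSO libraries serve both this comparison and those of the inhibitors. In both experiments, 7 genes were higher (*MVK*, *CYP51A1*, *TM7SF2*, *INSIG1*, *INSIG2*, *NPC1* and *NPC2*) and 9 were lower (*ACAT2*, *HMGCS1*, *PMVK*, *IDI1*, *FDPS*, *LBR*, *HSD17B7*, *SC5D* and *MBTPS1*), which is 24.1% and 31%, where 28.1% of all genes in both tables were higher and 27.9% lower in both.

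*INSIG2* read 4.23 and 4.03 in untreated regular culture and 7.50 and 7.52 in untreated ischemic culture, 10.4-fold higher (log2 difference 3.38 ± 0.08, adjusted p = 8.32e-12). With DMSO the ischemic level was 6.63-fold higher (adjusted p = 1.77e-14). *INSIG1* read 3.76 and 3.83 against 6.22 and 7.17, with the ischemic libraries well apart from each other but both far above the regular ones. Its rise was 7.46-fold (2.90 ± 0.21, adjusted p = 1.18e-07) in untreated cells and 6.26-fold (adjusted p = 3.93e-15) with DMSO. *SREBF2* read 6.28 and 6.36 against 6.30 and 6.40 in untreated cells, groups that overlapped, and was 1.22-fold higher with DMSO (adjusted p = 0.000168). *SCAP* was lower in untreated cells, at 6.46 and 6.44 against 5.97 and 6.08, and did not differ in a called way with DMSO (-0.05, -0.18 to 0.09).

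Among the enzymes, the most lowered were *HSD17B7*, *LBR* and *IDI1*. *HSD17B7* read 3.17 and 3.18 in untreated regular culture and 1.74 and 2.05 in ischemic culture, 2.42-fold lower, and was 1.71-fold lower with DMSO. *LBR* read 6.98 and 6.96 against 6.16 and 5.93, 1.9-fold lower, and with DMSO 6.87 and 6.96 against 5.91 and 5.88, 2.03-fold lower. *IDI1* read 4.32 and 4.25 against 3.58 and 3.42, 1.72-fold lower, and was 1.91-fold lower with DMSO. None of these groups overlapped. *TM7SF2*, which shares its step with *LBR*, moved the other way, from 2.42 and 2.45 to 3.01 and 3.04 in untreated cells and from 2.44 and 2.78 to 3.17 and 3.24 with DMSO, 1.5-fold and 1.51-fold higher. *NPC1* rose from 5.87 and 5.99 to 6.46 and 6.49 in untreated cells, 1.46-fold, and by 1.3-fold with DMSO, and *HMGCS1* fell by 0.37 ± 0.09 and 0.60 ± 0.07 on the log2 scale.

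*DHCR7* was called in both experiments in opposite directions, lower in untreated cells (-0.34 ± 0.08) and higher with DMSO (0.20 ± 0.06). Other calls were made in 1 experiment alone. *STARD4* was higher in untreated cells (4.50 and 4.28 against 5.04 and 5.02) and at -0.21 (-0.42 to -0.01) with DMSO, which was not called. *MVD*, *FDFT1*, *MSMO1*, *NSDHL* and *SCAP* were called in untreated cells alone and *SREBF2* with DMSO alone, and the difference between the experiments was not tested. In untreated cells *MVD* was not called without regular replicate 1 (adjusted p = 0.0612), regular replicate 2 (0.146) or ischemic replicate 2 (0.0819), *MSMO1* without regular replicate 2 (0.0982) or *NSDHL* without regular replicate 1 (0.116). Nor was *MVK* called without regular replicate 2 (difference of 0.301) or *SC5D* without regular replicate 1 (-0.259). *NPC2* was not called without regular replicate 2 (0.156) or ischemic replicate 2 (0.169). Its call was also lost with no variance trend (adjusted p = 0.0903), median centring (0.0572) or quantile normalization (0.0581). With DMSO, *CYP51A1* was not called without regular replicate 2 (0.0814) or ischemic replicate 1 (0.0858). Among markers of other cells, *CD68* was also higher in ischemic culture, by 0.77 and 0.94 on the log2 scale. Of the 7 glial and neural markers, *SOX2* fell by 3.11 in untreated cells and 2.23 with DMSO, *OLIG2* by 1.68 and 0.81, *NES* by 1.365 and 1.06 and *S100B* by 0.85 and 0.39, and *VIM* rose by 1.38 and 1.27. *GFAP* fell by 0.79 in untreated cells alone, and *CD44* rose by 0.32 with DMSO alone. The part of these markers in the values of the sterol genes was not tested.

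**Figure D4:**
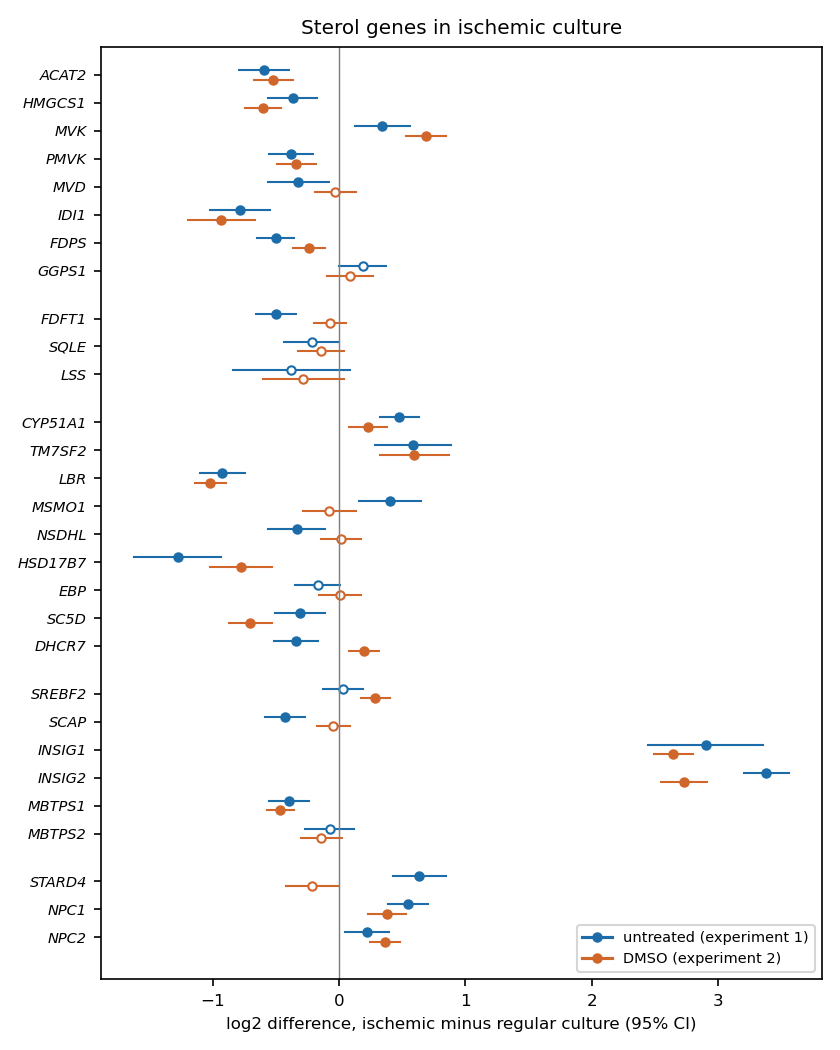
Log2 difference between ischemic and regular culture of each of the 29 genes in untreated cells (blue, experiment 1) and in DMSO cells (orange, experiment 2), with 95% confidence intervals from limma on 2 libraries per group. Filled points are called at an adjusted p under 0.05. *INSIG1* and *INSIG2* lie at 2.65 to 3.38, and the other 27 genes lie between -1.28 and 0.69.

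Lists of genes next to the pathway were read against the same shares of all genes with MK25 against VX745, 3.96% higher and 1.43% lower in regular culture and 8.22% higher and 10.2% lower in ischemic culture. Of 12 genes of the isoprenoid branch, which makes dolichol, ubiquinone side chains and prenyl groups from farnesyl and geranylgeranyl diphosphate, 0 were called by limma with MK25 against VX745 in regular culture, where an unadjusted p under 0.05 gave 1 higher and 1 lower, and 2 were lower in ischemic culture, *ZMPSTE24* (-0.25) and *ICMT* (-0.17). Of 6 electron donors and helpers of the sterol enzymes, 2 were higher in regular culture, *ERG28* (0.77), a scaffold of the demethylation enzymes, and *CYB5B* (0.29), and 2 in ischemic culture, *ERG28* (0.45) and *POR* (0.21). Of 9 genes for the degradation or retention of sterol sensors, *RNF145*, a ubiquitin ligase of the endoplasmic reticulum, was higher in both cultures (0.54 and 0.75), and *SPRING1* in ischemic culture (0.36). Of 9 other genes of sterol movement, *TMEM97* (0.40) and *LIPA* (0.37), the lysosomal acid lipase, were higher in regular culture, and *LIPA* (0.27) and *ACBD3* (0.24) in ischemic culture. In ischemia, where 34.4% to 35.2% of all genes were called in each direction, the isoprenoid branch had 1 higher and 5 lower in untreated cells and 5 and 5 with DMSO, and 5 and 4 of the 6 electron donors and helpers were lower. The sensor list had 3 higher and 5 lower in untreated cells and 3 and 4 with DMSO, and the other genes of sterol movement 4 higher and 1 lower (of 8 listed) and 3 and 3. The most lowered were *RNF145* (-1.63 in untreated cells and -1.85 with DMSO), *ICMT* (-1.30 and -0.95) and, with DMSO, *GRAMD1B* (-1.28). The most raised was *RNF139*, a ubiquitin ligase of the endoplasmic reticulum, in untreated cells (1.005, against 0.39 with DMSO) and *GRAMD1A*, a carrier of cholesterol between membranes, with DMSO (0.94, against 0.66 in untreated cells).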

How the data were processed

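RNA from 16 libraries of LN229 cells (SMART-Seq mRNA HT and Nextera XT kits, paired-end reads) was trimmed and aligned to GRCh38 with HISAT2 in Galaxy by the authors, whose methods and the submitters' processing notes name edgeR for their own tests. The authors deposited 2 tables of log2 normalized CPM by Entrez identifier. Of the identifiers, 99.4% and 99.3% were matched to symbols. The deposited log2 values were used without a further logarithm or pseudocount. Undoing the logarithm gave whole reads for 100% of the values in every library (within 0.01 reads), with 22346073 to 28373993 reads in experiment 1 and 20122017 to 37562668 in experiment 2. Replicate libraries differed by more than sampling noise (chi-square of 3.29 to 9.4 per gene).

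The main test was limma 3.58.1 in R 4.3.3, with 1 mean per group, a variance trend and two-sided p-values adjusted by Benjamini-Hochberg over all genes. It was used because the deposited values are logarithms, and edgeR was not run. The script was tested on simulated data. There were 11 comparisons, including 3 interactions with culture. Counts at an unadjusted p under 0.05 have no share of all genes beside them, since none was computed. The alternatives were no variance trend, median centring, quantile normalization, a mean of at least 1 CPM or a mean log2 of at least 3, voom on the recovered reads, 5 reads added, a replicate block, only the groups compared, and each library left out. The members, lists and tests were chosen with earlier results of these data known. Values in every library are given for genes called at a fold of at least 1.5 with MK25 against VX745 in either culture, or in ischemia in both experiments, and for *SREBF2*, *SCAP*, *INSIG1*, *INSIG2*, *STARD4* and *NPC1*. In neighbouring lists at most 3 called genes are named, those with the largest differences. Some genes of the pathway are not reported here. Promoters were RefSeq windows of GRCh38.p14, and the core CACNCCA was added after seeing the data. Figures were drawn with matplotlib 3.10.9 in Python 3.11.15.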

Additional observations from a re-analysis of the deposited data

Results flagged for a closer look

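The response to MK25 differed between the cultures by the interaction term in limma (ischemic minus regular, log2 scale), and all of these values were negative. Against DMSO the interaction was -1.77 for *INSIG1*, -1.50 for *HMGCS1*, -1.35 for *MSMO1*, -1.19 for *SQLE* and -0.99 for *CYP51A1*. It was -0.88 for *NSDHL*, -0.70 for *FDPS*, -0.70 for *MVK*, -0.69 for *ACAT2*, -0.69 for *EBP* and -0.62 for *FDFT1*. It was -0.60 for *HSD17B7*, -0.59 for *IDI1*, -0.54 for *INSIG2*, -0.51 for *MVD*, -0.46 for *SC5D* and -0.27 for *DHCR7*. Adjusted p-values ran from 9.05e-09 for *INSIG1* to 0.0226 for *IDI1*. With no variance trend, *IDI1* (adjusted p = 0.086) and *DHCR7* (0.051) were not called. The calls of 3 of these genes were lost when some of the libraries were left out. *HSD17B7* was not called without ischemic DMSO replicate 1 (adjusted p = 0.0645) or ischemic MK25 replicate 1 (0.0656), and *IDI1* not without regular DMSO replicate 1 (0.0665), regular MK25 replicate 2 (0.0625), ischemic DMSO replicate 1 (0.0723) or ischemic MK25 replicate 1 (0.111). *DHCR7* was not called without regular DMSO replicate 2 (0.0533), regular MK25 replicate 2 (0.0756), either ischemic DMSO replicate (0.0669 and 0.0532) or ischemic MK25 replicate 2 (0.0979).

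With MK25 against VX745, the interaction was -1.50 for *MSMO1*, -1.45 for *HMGCS1*, -1.003 for *SQLE*, -0.96 for *INSIG1*, -0.87 for *CYP51A1* and -0.68 for *NSDHL*. It was -0.52 for *ACAT2*, -0.51 for *SC5D*, -0.49 for *FDPS*, -0.47 for *MVK*, -0.46 for *FDFT1*, -0.45 for *INSIG2* and -0.41 for *MVD*. The interactions against DMSO and against VX745 share the MK25 libraries. With no variance trend, the calls of *SC5D* (adjusted p = 0.082), *MVD* (0.0659) and *INSIG2* (0.174) were lost. Quantile normalization lost those of *MVD* (0.0745) and *INSIG2* (0.0595), and median centring that of *MVD* (0.0505). The call of *MVK* was lost without regular MK25 replicate 1 (adjusted p = 0.07), either ischemic VX745 replicate (0.0703 and 0.0584) or ischemic MK25 replicate 2 (0.0605), and that of *SC5D* without regular VX745 replicate 2 (0.0504), ischemic VX745 replicate 1 (0.0645) or ischemic MK25 replicate 1 (0.0816). That of *INSIG2* was lost without regular VX745 replicate 2 (0.17), either regular MK25 replicate (0.0943 and 0.0743), ischemic VX745 replicate 2 (0.227) or ischemic MK25 replicate 1 (0.207), and also with voom (0.0776). That of *MVD* was lost without either regular VX745 replicate (0.0934 and 0.0866), regular MK25 replicate 1 (0.165), either ischemic VX745 replicate (0.151 and 0.0974) or either ischemic MK25 replicate (0.0552 and 0.132).

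The response to VX745 differed between the cultures for *INSIG1* (-0.81), *EBP* (-0.46) and *NPC2* (-0.34). With no variance trend, *EBP* (adjusted p = 0.0857) and *NPC2* (0.0545) were not called. The call of *EBP* was lost without regular DMSO replicate 2 (adjusted p = 0.059), regular VX745 replicate 1 (0.0824), ischemic DMSO replicate 1 (0.0542) or either ischemic VX745 replicate (0.0561 and 0.0563). That of *NPC2* was lost without regular VX745 replicate 1 (0.0551), ischemic DMSO replicate 1 (0.0603) or ischemic VX745 replicate 1 (0.0724).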

How the results depend on the processing

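No called value of the 29 genes changed sign under any setting. Of 167 called values, 148 were still called with no variance trend, 161 with quantile normalization, 165 with median centring, 165 with voom and 167 with 5 reads added. With no variance trend, VX745 in ischemic culture gave 0 higher and 2 lower genes, and its interaction with culture gave 1 lower. For MK25 against DMSO in regular culture, the calls of *LSS* (adjusted p = 0.0537) and *NPC1* (0.0855) were then lost. *NPC1* was also lost with only the groups compared (0.0674). For MK25 against VX745, no variance trend lost *LSS* (0.0677) and *EBP* (0.0532) in regular culture. In ischemic culture it lost *LSS* (0.0587) and *INSIG2* (0.0598). In ischemic culture, the calls of *SC5D* and *NPC2* against DMSO did not hold without ischemic DMSO replicate 2 (differences of 0.204 and 0.194). Labels give the libraries of all groups the same replicate numbers. In experiment 2, deviations of same-numbered libraries were at most weakly correlated (r of -0.10 to 0.18 over 15 pairs of groups, 2 of them over 0.1). In experiment 1, the 1 pair had a weak positive r of 0.19. With the replicate number as a block, 166 of the 167 calls held, and the counts were 9 and 15 for ischemia in untreated cells, 9 and 9 with DMSO, 24 and 20 higher with MK25, 22 and 21 higher with MK25 against VX745, and 17 and 13 for the MK25 interactions. Leaving out each library gave 0 to 1 higher and 0 to 1 lower with VX745 in regular culture, 0 to 1 higher and 1 to 3 lower in ischemic culture, and 0 to 1 higher and 1 to 4 lower for its interaction. It gave 21 to 23 and 18 to 20 higher with MK25, 21 to 22 and 19 to 19 higher with MK25 against VX745, 14 to 17 and 10 to 12 lower for the MK25 interactions with 0 to 1 higher, and 6 to 9 higher and 11 to 15 lower (untreated) and 8 to 9 higher and 9 to 10 lower (DMSO) for ischemia. A group left with 1 library was assumed to vary like the others. Where a cause is not named here, the cause was not tested. With 2 libraries a group, small differences have wide intervals. The lowest count of a member in a library was 86 reads (*HSD17B7*), and the part of depth in the spread was not tested.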

Other observations

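The genes of fatty acid synthesis and SREBP1 (11 listed) also rose with MK25. With MK25 against VX745, 9 were higher in regular culture and 9 in ischemic culture, where 3.96% and 8.22% of all genes were, and their median log2 difference was 0.66 and 0.50. The largest rises in regular culture were those of *SCD*, the stearoyl-CoA desaturase (1.93), *FADS2*, a fatty acid desaturase (1.64), and *LPIN1*, a phosphatidate phosphatase (1.09). In ischemic culture they were those of *SCD* (1.95), *FADS2* (1.61) and *FASN*, the fatty acid synthase (1.20). The interaction with culture against VX745 was called for 2 of the 11, at 0.54 for *FASN*, with a larger rise in ischemic culture, and -0.48 for *ACSS2*, an acetyl-CoA synthetase, with a smaller one. *SREBF1* rose with ischemia by 1.21 in untreated cells and 1.32 with DMSO.

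Of 7 genes of LXR and sterol efflux, 3 were lower with MK25 than with VX745 in each culture, where 1.43% of all genes were lower in regular culture and 10.2% in ischemic culture. They were *ABCG1* (-1.80 in regular and -0.66 in ischemic culture) and *ABCA1* (-1.50 and -0.93), exporters of sterols, and *MYLIP* (-0.89 and -0.46), a ubiquitin ligase of lipoprotein receptors. In ischemia, 3 of the 7 were higher in each experiment, where 35.2% and 34.4% of all genes were, and 1 was lower in untreated cells and 2 with DMSO. Ischemic culture raised *ABCG1* by 2.60 in untreated cells and 1.59 with DMSO, and *ABCA1* by 1.07 and 1.02.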
